A study of Mus musculus with 23 samples.

Results

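Gm12253 and 1810065E05Rik are a pair of protein-coding genes that lie next to each other on mouse chromosome 11, with no other gene of the RefSeq table between them. They were chosen by symbol as adjacent genes whose level was higher in plasmacytoid dendritic cells (pDC) lacking Bcl6, so the genotype difference in pDC is a description here and carries no test. Each was read by 1 probe set that names no other gene, which makes 2 genes of the 19938 with such a probe set on the array.

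The samples were conventional dendritic cells of type 1 (cDC1), conventional dendritic cells of type 2 (cDC2) and pDC sorted from mouse spleen. The mice were conditional Bcl6 knockouts (Bcl6 cKO) or wild type (WT), with no further treatment named. There were 4 cKO and 3 WT arrays of cDC1, 5 cKO and 3 WT arrays of cDC2, and 5 cKO and 3 WT arrays of pDC. The sources used here give no Cre driver, strain or age. They also leave unsaid whether replicate arrays stand for different mice, so the errors and p-values cover the spread of these arrays only, and part of it may be technical.

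Bcl6 encodes a zinc finger repressor of transcription needed for germinal centres, where it acts in B cells and in follicular helper T cells. The pDC are the dendritic cells that make large amounts of type I interferon when their endosomal Toll-like receptors meet viral nucleic acid. They carry the sialic acid receptor Siglech and depend on the transcription factor Tcf4. No function of Gm12253 or 1810065E05Rik is annotated in the tables used here. On one side of the pair, the nearest gene with a probe set of its own is Lypd8. It encodes a Ly6/PLAUR domain protein of the gut epithelium that keeps flagellated bacteria away from the mucosa. On the other side it is Lypd9, named for the same domain.

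The promoters of both genes are shown because the genes were high in the same samples. Each window runs from 250 bases before to 50 bases after the annotated start (RefSeq, build GRCm38.p6, plus strand), at chr11:58432309-58432608 for Gm12253 and at chr11:58420861-58421160 for 1810065E05Rik, and capitals mark the letters AGGAAGT, an ETS-type motif of the kind bound by PU.1 and SPIB.
Gm12253: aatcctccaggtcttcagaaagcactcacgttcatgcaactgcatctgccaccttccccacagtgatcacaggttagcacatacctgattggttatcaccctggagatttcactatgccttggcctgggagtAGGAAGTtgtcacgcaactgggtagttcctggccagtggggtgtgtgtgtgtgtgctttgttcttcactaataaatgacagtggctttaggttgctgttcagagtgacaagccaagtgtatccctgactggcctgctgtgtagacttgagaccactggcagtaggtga
1810065E05Rik: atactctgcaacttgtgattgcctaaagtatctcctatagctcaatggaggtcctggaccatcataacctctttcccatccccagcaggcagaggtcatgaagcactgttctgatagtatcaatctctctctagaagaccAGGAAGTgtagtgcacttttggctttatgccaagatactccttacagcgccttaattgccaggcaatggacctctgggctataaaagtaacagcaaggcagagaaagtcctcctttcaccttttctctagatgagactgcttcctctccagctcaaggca

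Both genes are read in the same direction, and their annotated starts lie 11448 bases apart. The windows matched at 25.3% of positions when laid side by side without gaps, and their GC content was 50% for Gm12253 and 46.3% for 1810065E05Rik, against a median of 52.7% over 32851 promoter windows. Searched on both strands, AGGAAGT occurred 1 time in each window, starting 118 bases before the start of Gm12253 and 110 bases before that of 1810065E05Rik. The same letters were in 9.35% of all windows and in none of the windows of Lypd8 and Lypd9. Neither window of the pair held TTCNNNGAA, the paired half-sites that BCL6 and STAT factors recognise (8.30% of all windows), AANNGAAA of the IRF type (23.9%) or TGTGGT of the RUNX type (16.8%). The E-box CANNTG, a motif of Tcf4 and other bHLH factors, occurred 4 times in the window of Gm12253 and 0 times in that of 1810065E05Rik, while 72.3% of all windows held it. All 5 motifs were chosen after the sequences were seen, and a match is a match of letters only.

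Gm12253 was high in pDC of both genotypes and highest in the cKO arrays. Its log2 levels were 9.07, 9.43, 9.11, 9.48 and 9.53 in cKO pDC, against 7.37, 7.11 and 7.67 in WT pDC. Every cKO pDC array lay above every WT pDC array, and the arrays of each genotype stood close together. The means were 9.32 ± 0.22 in cKO pDC (SD, n = 5) and 7.38 ± 0.28 in WT pDC (SD, n = 3). This is a log2 difference of 1.94 ± 0.19 (SE), or 3.84-fold on the intensity scale.

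1810065E05Rik was higher in cKO pDC by about as much but with more spread. Its log2 levels were 7.06, 7.85, 8.34, 6.75 and 8.83 in cKO pDC, against 5.62, 5.25 and 6.16 in WT pDC. Again no cKO pDC array overlapped a WT pDC array, and the nearest arrays of the genotypes were 6.75 in cKO and 6.16 in WT. The means were 7.77 ± 0.87 in cKO pDC (SD, n = 5) and 5.68 ± 0.46 in WT pDC (SD, n = 3), a log2 difference of 2.09 ± 0.33 (SE), or 4.25-fold. With only the pDC arrays fitted, this SE was 0.45. The WT pDC arrays were only 0.72, 0.15 and 0.85 log2 units above their own array medians for this gene, while the cKO pDC arrays stood 1.45 to 3.46 above theirs. The fold against WT therefore rests on WT levels near the middle of the array and has an uncertain size.

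**Figure D1:**
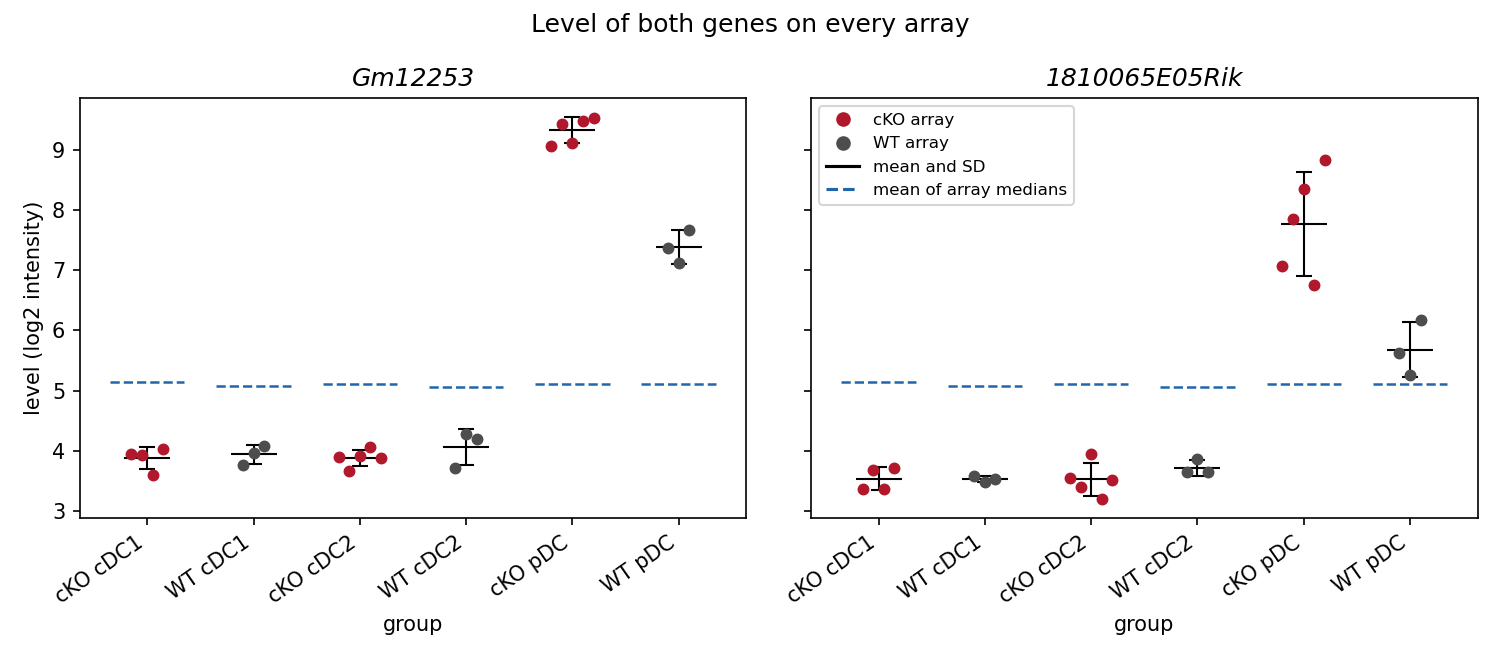
Level of Gm12253 and 1810065E05Rik (log2 intensity, vertical axis) on each of the 23 arrays by group, with the mean and SD of the group and, dashed, the mean of its array medians. Only the pDC arrays lie above the dashed lines, and for both genes all 5 cKO pDC arrays lie above all 3 WT pDC arrays.

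Among the 12157 genes kept by the filter, 1810065E05Rik had the largest cKO minus WT difference in pDC and Gm12253 the next. The lipocalin Apod came next at 1.92 ± 0.38 (SE). Only 34 genes (0.28%) exceeded a log2 difference of 1 in that direction, and 58 genes (0.477%) had every cKO pDC array above every WT pDC array. The share of all genes called by limma in this contrast at an adjusted p below 0.05 was 0.0329% (4 genes). The pair was among the genes tested, and no test result is read for it. Since the pair was chosen on this contrast, these figures describe the choice and are no test of it.

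Within the cKO pDC group the pair moved in step only in part. Array 5 was the highest for both genes (9.53 for Gm12253 and 8.83 for 1810065E05Rik), and array 1 was low for both (9.07 and 7.06). The WT pDC arrays had the same order for both genes. Array 4 had the lowest level of 1810065E05Rik (6.75) but nearly the highest of Gm12253 (9.48). Array 3 had the next highest level of 1810065E05Rik (8.34) but nearly the lowest of Gm12253 (9.11). With 5 arrays no correlation is given.

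The arrays fell into 3 sets by their median intensity, named A (29.3 to 31.0 intensity units), B (31.6 to 34.3) and C (38.9 to 41.2) here, and each set held cKO and WT pDC. The step between A and B is small and may not mark separate processing. For Gm12253 the cKO minus WT difference in pDC was 1.88 in set A, 2.0 in set B and 1.83 in set C. For 1810065E05Rik it was 1.83, 3.09 and 1.63 in those sets. Sets A and C held 2 cKO and 1 WT pDC array each and set B held 1 of each, so no error is given. Every cKO pDC array lay above every WT pDC array, so each set had to show the cKO higher. Only the size could vary between sets. The smallest difference was 1.63 log2 units, and the largest value of each gene was in set B.

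**Figure D2:**
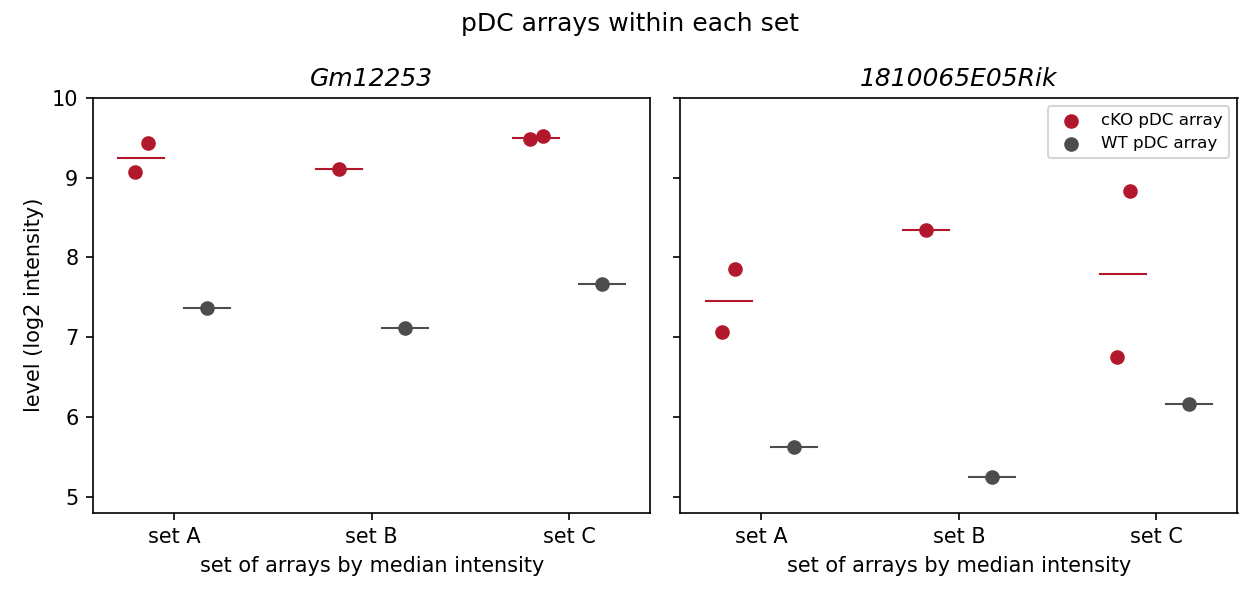
Level of both genes (log2 intensity, vertical axis) on the pDC arrays of each set, with a line at the mean. In every set the cKO arrays lie above the WT array, as they must where the genotypes do not overlap. The differences of mean are 1.83 to 2.0 for Gm12253 and 1.63 to 3.09 for 1810065E05Rik.

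WT array 1 of each cell type had a high level of Xist, the transcript of the inactive X chromosome, and all other arrays had a low one. The WT pDC array 1 nevertheless lay between the other WT pDC arrays for both genes. It was the only WT pDC array of set A, so the genotype difference in that set cannot be told apart from one that goes with Xist. Without the 3 high-Xist arrays the pDC difference was 1.93 for Gm12253 and 2.06 for 1810065E05Rik.

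Neither gene was seen above the array median in a conventional dendritic cell. Gm12253 read 3.94, 3.94, 3.61 and 4.02 in cKO cDC1, against 3.76, 3.97 and 4.08 in WT cDC1. It read 3.90, 3.67, 3.91, 4.05 and 3.87 in cKO cDC2, against 3.72, 4.28 and 4.19 in WT cDC2. The genotypes overlapped in both cell types, and all 15 values lay below the median of their array. The cKO minus WT difference of Gm12253 was −0.06 ± 0.19 (SE; 95% interval −0.46 to 0.34; limma adjusted p = 1) in cDC1 and −0.18 ± 0.19 (95% interval −0.56 to 0.20; limma adjusted p = 1) in cDC2.

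1810065E05Rik read 3.37, 3.69, 3.37 and 3.72 in cKO cDC1, against 3.58, 3.48 and 3.52 in WT cDC1. In cDC2 it read 3.55, 3.40, 3.94, 3.21 and 3.52 in the cKO, against 3.64, 3.86 and 3.64 in the WT. Here too the genotypes overlapped and no array reached its median. The cKO minus WT difference was 0.01 ± 0.34 (95% interval −0.71 to 0.72; limma adjusted p = 1) in cDC1 and −0.19 ± 0.33 (95% interval −0.87 to 0.49; limma adjusted p = 1) in cDC2. Over all genes, limma called 0.831% in cDC1 and 1.56% in cDC2. A level this low cannot be told from background, so a fall or a small rise of either gene in cDC1 or cDC2 was not detectable here. A rise as large as the pDC difference (1.94 for Gm12253, 2.09 for 1810065E05Rik) was not seen. The upper interval limits in cDC1 and cDC2 were 0.34 and 0.20 for Gm12253, and 0.72 and 0.49 for 1810065E05Rik.

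The cDC1 and cDC2 did not pass against each other either. The cDC1 minus cDC2 difference of Gm12253 was 0.00 ± 0.17 (SE; limma adjusted p = 0.997) in cKO and −0.12 ± 0.21 (limma adjusted p = 1) in WT. For 1810065E05Rik it was 0.01 ± 0.30 (limma adjusted p = 0.995) in cKO and −0.18 ± 0.37 (limma adjusted p = 1) in WT. Against these, 8.95% of all genes were called in cKO and 6.05% in WT.

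In order of level, both genes ran from cKO pDC through WT pDC to WT cDC2 and then the other cDC groups. The step between cKO pDC and WT pDC and the step between WT pDC and WT cDC2 were free of overlap. All later neighbours in the order overlapped. Gm12253 in cKO pDC was 5.45 ± 0.17 (SE) log2 units above cKO cDC1 and 5.44 ± 0.16 above cKO cDC2, and in WT pDC it was 3.45 ± 0.21 above WT cDC1 and 3.32 ± 0.21 above WT cDC2. 1810065E05Rik in cKO pDC was 4.23 ± 0.30 above cKO cDC1 and 4.24 ± 0.28 above cKO cDC2, and in WT pDC it was 2.15 ± 0.37 above WT cDC1 and 1.97 ± 0.37 above WT cDC2. These differences use the pDC arrays by which the pair was chosen and are given without a test, and their lower side is at background. Over all genes, 276 of 12157 (2.27%) had every pDC array above every cDC array, as did both of the pair. Both genes passed the filter on low values through their 8 pDC arrays alone.

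Markers of pDC were high on the arrays labelled pDC, and none of them passed the test between genotypes. Siglech averaged 12.39 ± 0.25 (SD) in cKO pDC and 12.42 ± 0.16 in WT pDC, and the highest cDC array read 6.50. Ly6d, a Ly6 protein of pDC and B-lineage progenitors, averaged 12.27 ± 0.37 in cKO pDC and 12.29 ± 0.48 in WT pDC. Of the 12 pDC markers listed, 10 were kept by the filter, and limma called 0 of these in cKO against WT pDC (0 at an unadjusted p below 0.05). Their median difference was 0.29, with a range of −0.31 to 0.64, beside a median of 0.05 over all genes. With 0.0329% of all genes called in this contrast, a list this short would be likely to hold no call. The antiviral membrane protein gene Bst2 differed by 0.04 ± 0.41 (SE; limma adjusted p = 1), the transcription factor Irf8 by 0.42 ± 0.38 (limma adjusted p = 1) and Tcf4 by 0.38 ± 0.26 (limma adjusted p = 1). In sorted populations measured in bulk, a change in the share of cells that express a gene and a change in RNA per cell cannot be told apart.

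Markers of other cells were read on the same pDC arrays. Some were high in both genotypes, such as Cd209a (mean 10.25 in cKO pDC and 10.84 in WT pDC), Clec9a (9.95 and 9.74) and Xbp1 (10.84 and 10.45). Others were lower, such as Ms4a1 (6.27 and 6.64). Irf8 was listed for both pDC and cDC1. These lists therefore cannot by themselves measure an admixture of other cells. Limma called 0 of 6 kept B cell markers, 0 of 5 plasma cell, 0 of 5 T cell, 0 of 4 NK cell, 0 of 6 red pulp macrophage, 0 of 4 monocyte and neutrophil, 0 of 8 cDC1 and 0 of 7 cDC2 markers, as well as the only kept erythroid or platelet marker. At an unadjusted p below 0.05 there was 1 each among the B cell, T cell and cDC2 markers and 0 in the rest. Over all genes 0.0329% were called in this contrast, so 0 calls in such short lists say little. The summed intensity of the B cell markers was 369 to 926 in cKO pDC and 471 to 702 in WT pDC, and that of the plasma cell markers was 2412 to 4207 in cKO pDC and 1896 to 3671 in WT pDC. For T cells it was 321 to 573 in cKO pDC and 332 to 750 in WT pDC. The NK cell markers summed to 115 to 278 in cKO pDC and 135 to 917 in WT pDC. The cDC1 markers summed to 3092 to 8082 in cKO pDC and 2881 to 5573 in WT pDC. For the cDC2 markers it was 2337 to 4938 in cKO pDC and 3660 to 4603 in WT pDC. The B, plasma, T, NK, cDC1 and cDC2 ranges overlapped between genotypes. Of 6 gut epithelial markers, Lypd8 among them, 0 were kept by the filter and 5 were above the median of no array.

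No gene around the pair passed the test in pDC. The 10 nearest genes with a probe set of their own on each side were taken, 20 in all, and 8 were kept by the filter. In the main fit, limma called 0 of the 8 in cKO against WT pDC (0 at an unadjusted p below 0.05), where 0.0329% of all genes were called. Their differences ran from −0.37 to 0.78 with a median of −0.03. None of the 8 had genotypes free of overlap.

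The nearest gene with a probe set of its own on each side of the pair gave no level above the middle of the array. Lypd8 and Lypd9 were above the median of no array in any of the 6 groups, and their differences of mean in pDC were −0.21 and −0.02. Beyond Lypd9 lies a run of olfactory receptor genes, which encode odorant receptors of the nose. Of 8 olfactory receptor genes in the window, Olfr330 exceeded the array median on 1 array and the others on none. In all, 11 of the 20 neighbours were above the median of no array.

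On the side of Lypd8, 8 of the 10 neighbours were kept by the filter, and Lypd8 and 4930438A08Rik were above the median of no array. Sh3bp5l, the nearest gene that was kept, averaged 5.24 ± 0.16 in cKO pDC and 5.46 ± 0.20 in WT pDC (SD), a difference of −0.22 ± 0.22 (SE; limma adjusted p = 1). The zinc finger genes Zfp672 and Zfp692 differed by −0.37 ± 0.30 and 0.16 ± 0.23 (limma adjusted p = 1 for each). Farther out came Gm12250, an interferon-inducible GTPase of the IRG family, at 0.52 ± 0.27 (limma adjusted p = 1) in pDC. Gm12250 also had positive differences in cDC1 (0.64 ± 0.28, limma adjusted p = 1) and cDC2 (0.60 ± 0.27, limma adjusted p = 0.650), the cell types in which the pair was at background. Mrpl22, a mitochondrial ribosomal protein gene, differed by −0.25 ± 0.37 in pDC, the snRNP assembly gene Gemin5 by −0.07 ± 0.34 and the deadenylase gene Cnot8 by 0.01 ± 0.48 (limma adjusted p = 1 for each). The RNA-binding protein gene Larp1 had the highest difference of the 8, 0.78 ± 0.40 (limma adjusted p = 1), and it varied between 0.15 and 1.24 when single arrays were left out. It was 1.24 without WT pDC array 1 and 0.15 without WT pDC array 2.

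**Figure D3:**
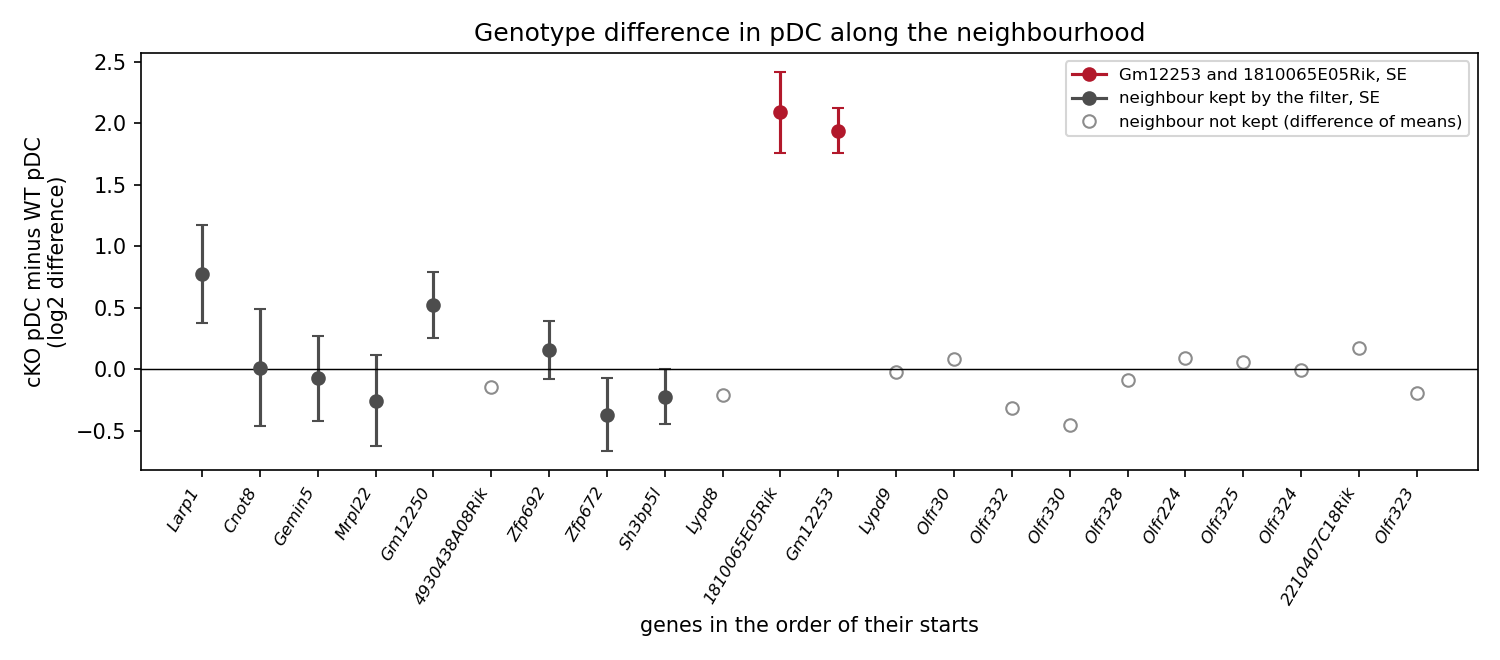
Log2 difference of cKO minus WT pDC (vertical axis) for the pair and the 10 genes on each side, in the order of their starts; filled points carry the limma SE and open points are genes not kept by the filter. The pair stands at 2.09 and 1.94, and all 20 neighbours lie between −0.45 and 0.78.

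Genes related by family or by neighbourhood were described in the same way. The Ly6/uPAR family are the small disulphide-rich proteins to which Lypd8 and Ly6d belong. Of 32 genes listed, 27 had a probe set that names no other gene and 12 were kept. Limma called 0 of the 12 in cKO against WT pDC (0 at an unadjusted p below 0.05), where 0.0329% of all genes were called. The 12 had a median difference of 0.06, against 0.05 over all genes. The member with the highest level, the interferon-inducible Ly6e, differed by 0.34 ± 0.27 (SE; limma adjusted p = 1), and the urokinase receptor gene Plaur by 0.41 ± 0.37 (limma adjusted p = 1). Of 18 symbols listed for interferon-inducible IRG and GBP GTPases, 10 had a probe set that names no other gene and 9 were kept. Limma called 0 of the 9 in pDC (3 at an unadjusted p below 0.05), again beside 0.0329% of all genes. The 9 had a median difference of 0.61 and a range of −0.07 to 1.26. In cDC1 and cDC2, where 3 of the 9 were called higher in each, the median differences were 1.53 and 0.89. Over all genes 0.831% were called in cDC1 and 1.56% in cDC2, in either direction. The pair was near background in both cDC types.

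The genes whose levels followed the pair most closely were genes of pDC. Likeness was Pearson's r of log2 level over the 23 arrays, which share their groups, so r here is a description and mostly reflects pDC against the other cells. For Gm12253 the closest were Hsd11b1, the enzyme that regenerates active glucocorticoid (r = 0.983), the progestin receptor gene Paqr5 (r = 0.974), the phosphoglycerate mutase gene Pgam2 (r = 0.973), 1810065E05Rik (r = 0.970) and Siglech (r = 0.967). For 1810065E05Rik they were Gm12253 (r = 0.970), Pgam2 (r = 0.961), Hsd11b1 (r = 0.949), Paqr5 (r = 0.917) and Ly6d (r = 0.913). Over the 18 arrays without cKO pDC, r between the pair was 0.972. Over the 15 cDC arrays, where both were at background, it was 0.32.

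All of these genes were high in pDC, and the genotype differences read for the genes outside the pair were below 1 log2 unit. Hsd11b1 averaged 8.54 ± 0.31 in cKO pDC and 7.58 ± 0.64 in WT pDC (SD), a difference of 0.96 ± 0.23 (SE; limma adjusted p = 0.372). Pgam2 averaged 8.92 ± 0.60 in cKO pDC and 8.24 ± 0.70 in WT pDC, a difference of 0.68 ± 0.29 (limma adjusted p = 1). Paqr5 differed by 0.39 ± 0.20, Siglech by −0.03 ± 0.24 and Ly6d by −0.02 ± 0.37 (limma adjusted p = 1 for each). None of these 5 genes passed, where 0.0329% of all genes were called. The pair was chosen on its differences of 1.94 and 2.09, so its larger size beside these genes was part of the choice.

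**Figure D4:**
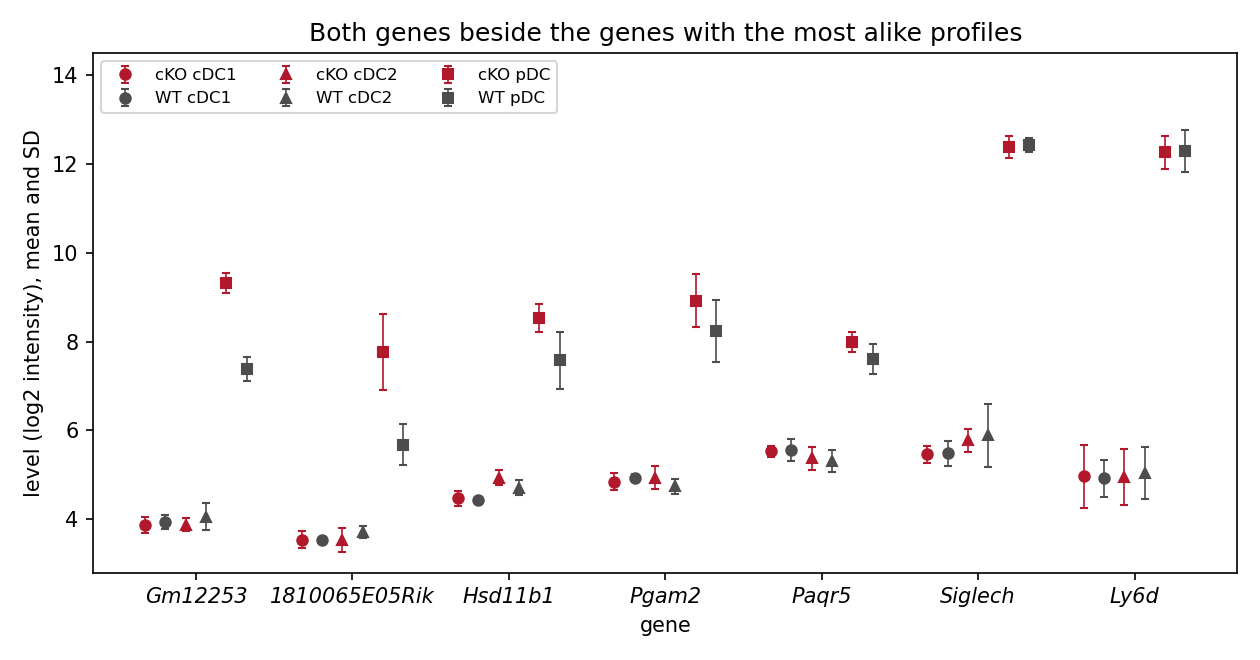
Mean level (log2 intensity, vertical axis) with SD in each of the 6 groups for the pair and for the 5 other genes whose levels followed theirs most closely; squares are pDC. All 7 genes are highest in pDC, the pair is separated between cKO and WT pDC, and the Siglech and Ly6d means of the genotypes differ by 0.03 and 0.02.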

How the data were processed

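RNA of 23 sorted spleen samples was hybridised to Mouse Gene arrays. The deposited values are intensities, 1 per probe set and array, made with Affymetrix Expression Console and RMA per the submitters' processing notes, with versions not given in the sources used here. With a range of 3.785 to 13980.744 they are linear, and log2 was taken before all else. Array medians lay between 29.3 and 41.2 intensity units. Of 28853 probe sets, 21789 named 1 gene, 1621 several and 5443 none in the GEO platform table, and 21698 matched RefSeq (GRCm38.p6) by Entrez identifier. Probe sets had to exceed the array median on 3 or more arrays, and the brightest stood for its gene, which left 12157 genes.

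Group means were fitted over all 23 arrays with limma 3.58.1 in R 4.3.3 (17 residual degrees of freedom; two-sided; Benjamini-Hochberg over all 12157 genes; call at an adjusted p below 0.05) and tested on simulated data. Adjusted p-values above 0.999 are printed as 1. Figures used matplotlib 3.10.9. The pair, the lists and the array sets were chosen with earlier results of these data known. Named genes were the pair, 10 neighbours on each side, the 5 genes of highest correlation with each, and up to 3 members of a list by level; Apod was named after its value was seen. No label names the sets A, B and C.

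Same-numbered cKO and WT arrays deviated together in cDC1 (correlations over genes of 0.54, 0.44 and 0.49), where arrays 1 to 3 shared their set. In cDC2 and pDC, array 1 was in set A for both genotypes (0.68 and 0.64). Arrays 2 and 3 there were in different sets (−0.08 and −0.03 in cDC2, −0.26 and −0.04 in pDC). Pairing by number therefore cannot be told apart from sharing a set. The main fit used no replicate block. Precision is limited by how few arrays there are.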

Additional observations from a re-analysis of the deposited data

How the results depend on the processing

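The pair was chosen on the pDC difference, and its genotypes did not overlap in pDC. Leaving out single arrays therefore could not turn the direction, and the filters on low values left the difference unchanged. That it kept its direction under all 33 alternatives is thus a description and no support. The pDC difference ran from 1.86 to 1.94 for Gm12253 and from 1.82 to 2.12 for 1810065E05Rik over filters, normalizations, weights and blocks. With single arrays left out it ran from 1.80 to 2.08 and from 1.82 to 2.34. No alternative called a cDC difference of the pair or any of the neighbours in pDC. The cDC differences near 0 changed sign at background levels, and the cause was not tested. For 1810065E05Rik, cKO minus WT in cDC1 turned to −0.059 with array medians subtracted, −0.015 with quantile normalization and −0.054 with a replicate block in a fit of the cDC1 arrays alone (chosen after seeing the data), and ran from −0.054 to 0.063 with single arrays left out. Its cDC1 minus cDC2 difference in cKO turned to −0.018, −0.047 and, with the array set as a term, −0.016 (−0.069 to 0.12 with single arrays left out). For Gm12253 that difference was 0.020 with the replicate block (−0.058 to 0.086 with single arrays left out), and cKO minus WT in cDC1 ran from −0.15 to 0.029. With the replicate block the pDC difference was 1.86 for Gm12253 and 2.05 for 1810065E05Rik, and the block changed no call of either gene.

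Among neighbours in pDC, Cnot8 turned to −0.064 with the set term, −0.36 with array weights, −0.049 with quantile normalization, −0.42 with the replicate block and −0.12 without the high-Xist arrays, and Zfp692 to −0.041 with the block. With single arrays left out Cnot8 ran from −0.43 to 0.58, Gemin5 from −0.39 to 0.18 and Mrpl22 from −0.48 to 0.049. Some alternatives gave neighbours a larger difference for its SE than the main fit, though none was called. Larp1 was 0.65 ± 0.25 (SE) and Gm12250 0.56 ± 0.23 with the set term. With the replicate block Gm12250 was 0.69 ± 0.23 and Zfp672 −0.62 ± 0.20. The count of neighbours at an unadjusted p below 0.05 covers the main fit only. Signal below the array median limits the cDC values of the pair, and signal near it the WT pDC values of 1810065E05Rik.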

Other observations

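Slfn5 and Oasl2, both outside the pair, were called by limma in cKO against WT pDC and are named here after their values were seen. Slfn5, a Schlafen family gene, was higher by 1.78 ± 0.31 (SE; limma adjusted p = 0.0307). Oasl2, an interferon-stimulated gene related to the oligoadenylate synthetases, was higher by 1.32 ± 0.23 (limma adjusted p = 0.0266).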
